A study of Mus musculus with 8 samples.

Results

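The binding sites of Foxa2 and of Hdac3 in old mouse liver were set side by side, to ask how far the 2 proteins were listed at the same places at 21 months. All sites of the Foxa2 list (12834) and of the Hdac3 list (2930) from old liver were used, 15764 of the 28196 sites in the 4 lists of the series. A pair of sites with 1 bp or more in common counted as overlapping, and the distance from each site to the nearest site of the other protein was measured between nearest edges. The livers were snap-frozen and came from wild-type mice of the inbred strain C57BL/6, 21 months old for these lists and 3 months old for the young lists used as a reference. No genetic change or treatment is named in the labels. The antibodies were raised in rabbit for both proteins, as an antiserum in the case of Foxa2. Each protein and age had 2 chromatin immunoprecipitation and sequencing (ChIP-seq) libraries but 1 list, so no value has a replicate error and no difference was tested. The 95% intervals are exact binomial (Clopper-Pearson) intervals for counting error only, and the read depth is unknown. Whether the 2 libraries of a group came from separate mice is not stated.

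Foxa2 is a forkhead transcription factor that opens closed chromatin and marks many regulatory sites of hepatocytes, the main cell type of the liver. Hdac3 removes acetyl groups from histones. It has no DNA-binding domain of its own and reaches DNA through the NCoR and SMRT corepressors, which nuclear receptors and other transcription factors recruit, and in liver it is known for restraining genes of lipid synthesis. Whole liver also holds other cell types. A site bound in fewer cells cannot be told apart from a site bound more weakly in each cell, and a shared site does not show both proteins in the same cell. Sites are named by their position in the mm9 build, as the lists give it, because no gene annotation or sequence of that build was used here. For the same reason the liver label was not checked against marker genes.

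In the lists as deposited, Foxa2 and Hdac3 lay apart at most of their sites in old liver. An Hdac3 site overlapped 156 of the 12834 Foxa2 sites, 1.22% (95% interval 1.03 to 1.42), and a Foxa2 site overlapped 158 of the 2930 Hdac3 sites, 5.39% (4.60 to 6.27). The median Foxa2 site was 414 kb from the nearest Hdac3 site, with quartiles of 129 and 947 kb. The median Hdac3 site was 86.4 kb from the nearest Foxa2 site, with quartiles of 17.0 and 288 kb. Foxa2 had 4.38 times as many sites as Hdac3, which by itself shortens the second distance. More than 100 kb separated 79.1% of the Foxa2 sites and 46.6% of the Hdac3 sites from the other protein. Within 10 kb, overlap included, lay 568 Foxa2 sites (4.43%) and 601 Hdac3 sites (20.5%). The bases in common amounted to 41.5 kb, 2.76% of the bases in Foxa2 sites and 25.9% of those in Hdac3 sites. Of these bases, 5799 lay in 1 pair on chromosome 17. The Hdac3 share depended on the q-value, as 233 of the 2930 sites had a q-value of at most 0.05. With both lists cut at 0.01, 61 of 87 Hdac3 sites (70.1%) and 63 of 3954 Foxa2 sites (1.59%) overlapped.

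**Figure D1:**
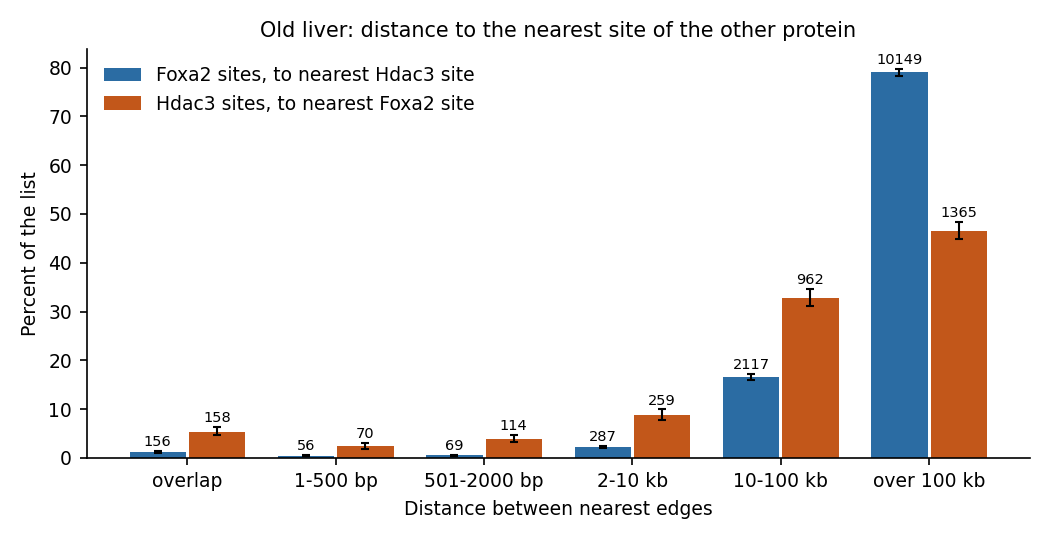
Percent of the old Foxa2 sites (blue) and of the old Hdac3 sites (orange) in each class of distance to the nearest site of the other protein, with exact 95% intervals as error bars and the number of sites above each bar. Most Foxa2 sites (10149) and the largest class of Hdac3 sites (1365) lay over 100 kb from the other protein.

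Foxa2 sites were nevertheless denser close to Hdac3 sites than along the genome. Old Foxa2 sites averaged 4.99 per Mb over the 2573 Mb between the first and the last listed site of each chromosome. Within 500 bp of an old Hdac3 site, centre to centre, there were 78.8 old Foxa2 sites per Mb, 15.8 times that level. The ratio was 6.46 from 500 bp to 2 kb, 4.29 from 2 to 10 kb, 2.51 from 10 to 50 kb, 1.37 from 50 to 100 kb and 1.07 from 100 to 500 kb. The excess thus faded with distance and extended past the overlapping sites.

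A few places carried much of this excess. When all sites were merged, 103 regions held sites of all 4 lists, both proteins at both ages, and are called the common regions. They contained 109 of the 156 overlapping Foxa2 sites, 69.9%, and 110 of the 158 overlapping Hdac3 sites, 69.6%. Because both proteins are present there by the way the regions were built, the overlap must drop when they are set aside. Without them 47 Foxa2 sites (0.370%) and 48 Hdac3 sites (1.71%) overlapped, and the density ratio was 7.07 within 500 bp and 2.25 from 2 to 10 kb. When 5 windows of 1 Mb with 20 or more Hdac3 sites were left out as well, a choice made after the values were seen, 38 Foxa2 sites (0.300%) and 39 Hdac3 sites (1.47%) overlapped. The ratio was then 5.65 within 500 bp, from 74 pairs of sites, 1.57 from 2 to 10 kb and 1.27 from 10 to 50 kb.

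**Figure D2:**
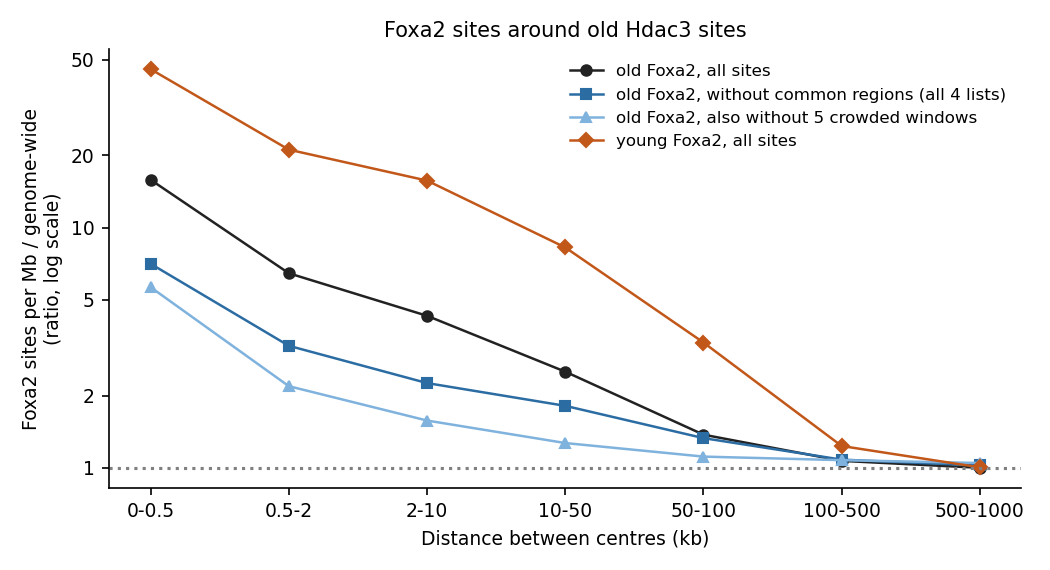
Foxa2 sites per Mb around the old Hdac3 sites, divided by the genome-wide density of the same Foxa2 list (log scale), by distance between centres. Black circles show old Foxa2 with all sites (15.8 within 500 bp), dark blue squares without common regions (7.07), light blue triangles also without 5 crowded windows (5.65), and orange diamonds the young Foxa2 list (45.6); the dotted line marks equal density.

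More old Hdac3 sites met a Foxa2 site of the young list than of the old list, a difference that was not tested. Young Foxa2 sites overlapped 263 old Hdac3 sites, 8.98% (7.97 to 10.1), although the young Foxa2 list was shorter, with 6604 sites. Within 500 bp of old Hdac3 sites there were 117 young Foxa2 sites per Mb, 45.6 times their genome-wide 2.57 per Mb. Old Foxa2 had 78.8 per Mb there, with a higher genome-wide density of 4.99. Outside both the common regions and the crowded windows the young ratio was 18.9, from 124 pairs. The densities were then 46.7 per Mb for young and 27.8 for old Foxa2. Of the old Hdac3 sites, 138 overlapped Foxa2 sites of both ages, 20 overlapped old Foxa2 alone, 125 overlapped young Foxa2 alone, and 2647 (90.3%) overlapped neither. Sites on young Foxa2 alone had a median width of 89 bp, and 20 of the 125 lay on the X chromosome. Crowded windows held 63 of the 125, against 44 of the 138 on Foxa2 of both ages and 89 of the 2647 on neither.

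The Hdac3 sites with the strongest statistical support nearly all overlapped a listed Foxa2 site, mostly in the common regions. The control is not stated, and whether both proteins bound at these places was not tested. Of the 65 old Hdac3 sites with a q-value of at most 0.001, 63 overlapped an old Foxa2 site, 96.9% (89.3 to 99.6), and 62 of these lay in the common regions. Each q limit in this and the next paragraph was applied to the list being counted, with the other list kept whole. At q of at most 0.01 it was 80 of 87 sites, 92.0%. Between the limits of 0.05 and 0.1 the list grew from 233 to 2227 sites and the overlapping ones from 91 to 135, so that the share fell from 39.1% to 6.06%. Outside the common regions, 5 of 11 Hdac3 sites overlapped at 0.01, 9 of 150 (6%) at 0.05 and 35 of 2119 (1.65%) at 0.1.

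At the same q limits the share rose far less for Foxa2, but the limits kept far more Foxa2 than Hdac3 sites. At q of at most 0.001, 64 of 2370 old Foxa2 sites overlapped an Hdac3 site, 2.70% (2.09 to 3.44), against the 1.22% of the full list. In the 500 sites ranked first by q the share was 6.80% (4.75 to 9.37), and in the 25 later bins it ranged from 0% to 2.20%. In the best bin 30 of the 34 overlapping Foxa2 sites lay in the common regions. Overlapping sites outside these regions made up 0% to 1% of each bin, and 0.800% of the first. For Hdac3 the first bin of 500 held 18.6% overlapping sites (15.3 to 22.3), 82 of the 93 in the common regions, and the later bins 1.40% to 4.42%. By rank the first bin thus stood out in both lists, whose full shares were 1.22% and 5.39%.

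**Figure D3:**
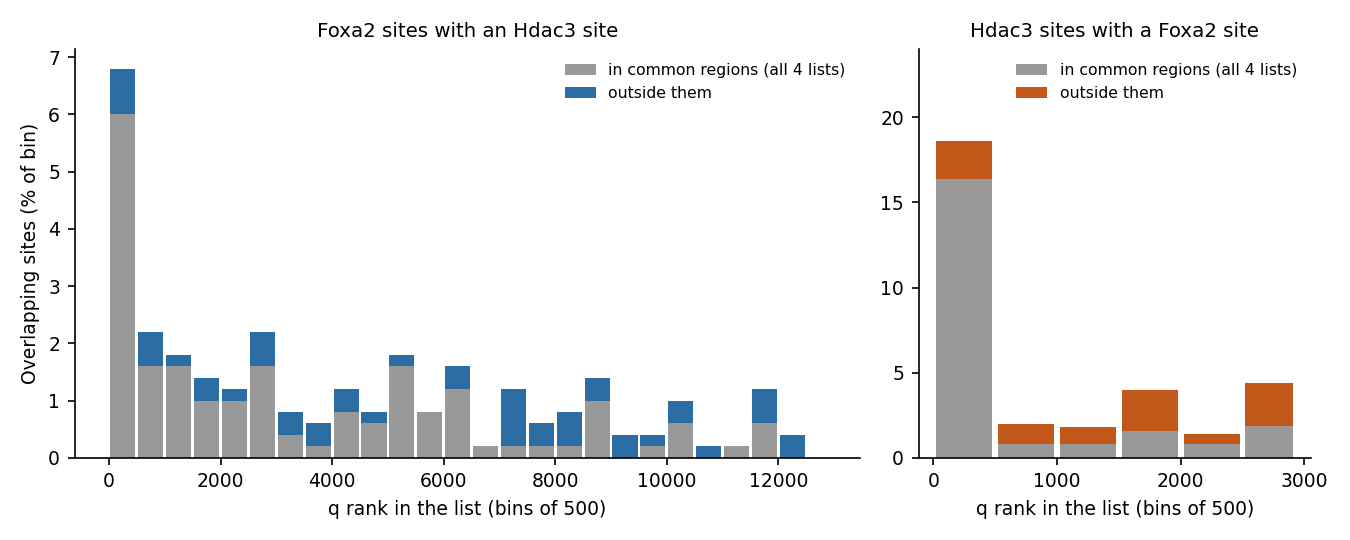
Percent of old Foxa2 sites (left) and old Hdac3 sites (right) that overlap the other protein, in bins of 500 sites by q rank (the last bin is smaller), split into sites in the common regions (grey) and outside them (colour). The first bins stand out, with 6.80% and 18.6%, and consist mostly of the grey part.

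Overlapping sites were wide and of low enrichment in both lists. The enrichment is the authors' own fold value per site, and its reference is not given. Overlapping Foxa2 sites had a median enrichment of 5.41 and a median width of 181 bp, against 22.6 and 100 bp for the other Foxa2 sites. Overlapping Hdac3 sites had a median enrichment of 4.93 and a median width of 150.5 bp, against 16.0 and 21.5 bp for the rest. The overlapping sites outside the common regions had higher enrichments, with medians of 8.16 for Foxa2 and 7.996 for Hdac3, and smaller widths, with medians of 151 and 84.5 bp. Wider sites have more bases with which to overlap, so the width is not independent of the way the shared sites were chosen.

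In both lists the sites of lowest enrichment overlapped most often. Of the 162 Foxa2 sites with an enrichment of at most 5, 69 overlapped Hdac3, 42.6% (34.9 to 50.6), whereas the share was 2.14% for enrichments over 5 to 10 and 0.390% to 0.698% in each of the 4 classes above 10. Outside the common regions it was 17 of 107 sites, 15.9%, in the lowest class, and 0.0521% to 0.420% in the classes above 10. Among Hdac3 sites the lowest class had 81 of 387 overlapping, 20.9% (17.0 to 25.3), but the share did not fall steadily above it. It was 4.54% for enrichments over 5 to 10, 2.49% to 20, 7.91% to 50, 3.597% to 100, and 4 of 693, 0.577%, above. With the common regions left out the lowest class had 18 of 311 overlapping, 5.79%, and the class over 20 to 50 had 8 of 206, 3.88%. The class above 100 of Hdac3 sites was narrow, with a median width of 9 bp. The classes with the highest shares were wider. The lowest Foxa2 class had a median width of 169.5 bp, against 100 bp for enrichments over 5 to 10. For Hdac3 the lowest class had 57 bp and the class over 20 to 50 had 56 bp, against 26 bp for enrichments over 5 to 10.

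By width, 46 of the 77 Hdac3 sites of 120 bp or more but under 250 bp overlapped Foxa2, 59.7% (47.9 to 70.8), and 54 of the 76 wider ones, 71.1% (59.5 to 80.9). Sites under 30 bp made up 58.5% of the Hdac3 list, 1715 sites, and 14 of them overlapped Foxa2. Of the 1035 Foxa2 sites under 30 bp 0 overlapped Hdac3, which allows a share of up to 0.290% by a limit of 3 counts. Outside the common regions, 10 of 37 Hdac3 sites in the first of these classes and 5 of 22 wider ones overlapped.

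The 2 lists gave most overlapping places a similar enrichment. The 156 Foxa2 and 158 Hdac3 sites formed 161 overlapping pairs, 113 of them in the common regions. Across the 161 pairs the enrichments had a Pearson r of 0.91 on the log2 scale and a Spearman rho of 0.86. These points are sites of the same 2 lists, not independent samples, so they are given as a description. The 48 pairs outside the common regions gave a Pearson r of 0.87 and a Spearman rho of 0.87. The Foxa2 enrichment divided by the Hdac3 enrichment had a median of 1.06, and in 146 pairs (90.7%) the values lay within 2-fold of each other. The median was 1.11 outside the common regions, and 37 of 48 pairs (77.1%) lay within 2-fold, against 109 of 113 (96.5%) inside. Over all pairs, Foxa2 was more than 2-fold higher in 9 pairs and Hdac3 in 6.

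**Figure D4:**
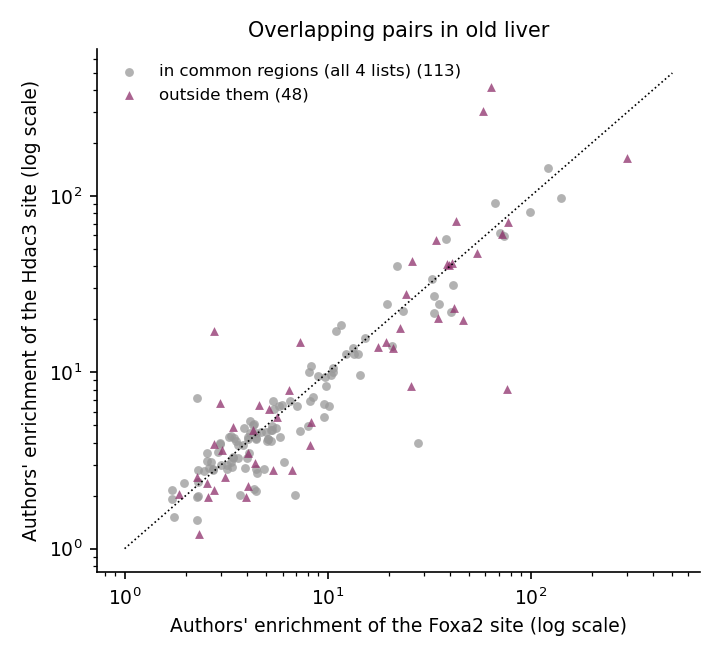
Authors' enrichment of the Foxa2 site against that of the Hdac3 site for the 161 overlapping pairs of old liver (both axes log scale), with 113 pairs in the common regions as grey circles and 48 outside them as purple triangles. The points follow the dotted line of equal enrichment over the whole range, and 15 pairs differ by more than 2-fold.

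Inside the common regions the pairs had much the same borders, and outside them they mostly did not. Inside, the 2 sites had 88.7% of their joint length in common (median, quartiles 46.6 and 96.1), both edges differed by at most 10 bp in 37 of 113 pairs and by at most 50 bp in 78, and the median Foxa2 to Hdac3 width ratio was 0.99. Outside them the median of the common length was 27.3% (9.66 and 76.0), both edges fell within 10 bp in 8 of 48 pairs and within 50 bp in 18, and the Foxa2 site was 2.19 times as wide as the Hdac3 site (median, quartiles 0.996 and 6.16). In 21 of these 48 pairs the Hdac3 site lay wholly inside a wider Foxa2 site, and in 9 the reverse held. The q-values of the pairs followed each other inside the common regions, with a Spearman rho of 0.85, but not outside them, where rho was -0.17.

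In the common regions, the best-ranked pair lay on chromosome 17. Its Foxa2 site ran from 39979937 to 39985774 (enrichment 5.59) and its Hdac3 site from 39979956 to 39985754 (4.85), and both were first in their lists. On chromosome 2 the Foxa2 site from 98506357 to 98507531 (3.39) and the Hdac3 site from 98506358 to 98507531 (2.91) differed by 1 bp at 1 edge. On chromosome 15 the Foxa2 site from 74915914 to 74917507 (4.05) met an Hdac3 site from 74915915 to 74917512 (4.19). On chromosome 9, at the first listed base of 3000000, the Foxa2 site ended at 3000566 (5.76) and the Hdac3 site at 3001510 (6.43). These 4 places combined very low q-values with enrichments well under the median of the Foxa2 list, 22.3. As the control is not stated, the values do not show that either protein bound at these 4 places, and this was not tested.

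Outside the common regions, the 6 best-ranked pairs had Foxa2 q-values of at most 0.0025, but Hdac3 q-values from 0.00474 to 0.0671. They were of 2 shapes. In the first, a very narrow Hdac3 site of high enrichment sat inside a Foxa2 site. On chromosome 4 an Hdac3 site of 5 bp from 109474272 to 109474276 (enrichment 417, q-value 0.0578) lay in a Foxa2 site from 109474154 to 109474287 (63.9). On chromosome 3 an Hdac3 site of 7 bp from 89705543 to 89705549 (304, q-value 0.0671) lay in a Foxa2 site from 89705454 to 89705667 (58.2).

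In the second shape the sites overlapped in part. On chromosome 3 a Foxa2 site from 141854605 to 141854827 (enrichment 39.6) and an Hdac3 site from 141854755 to 141854852 (40.7) had 73 bp in common. On chromosome 10 a Foxa2 site from 57694571 to 57694978 (4.07) and an Hdac3 site from 57694603 to 57694985 (3.48) had 376 bp in common. The other two pairs met at an edge, on chromosome 2 with 14 bp in common (Foxa2 from 136888011 to 136888177, 8.16, and Hdac3 from 136887942 to 136888024, 3.89) and on chromosome 1 with 72 bp (Foxa2 from 90121019 to 90121377, 6.68, and Hdac3 from 90120991 to 90121090, 2.78), the latter in a crowded window. The young Foxa2 list held 5 of these 6 Foxa2 sites, all but that on chromosome 2, and the young Hdac3 list held none of the 6 Hdac3 sites.

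Pairs were also ordered by the lower of their 2 enrichments. The pair whose lower value was highest lay on chromosome 8, with a Foxa2 site from 19895437 to 19895476 (301) and an Hdac3 site from 19895437 to 19895486 (164), and neither site was in its young list. Its Foxa2 site ranked 12011 of 12834, with a q-value of 0.118 in a list that ends at 0.12. Its Hdac3 site had a q-value of 0.0756. Next came chromosome 13 (Foxa2 from 74666113 to 74666211, 122, and Hdac3 from 74666145 to 74666209, 144), chromosome 19 (61000560 to 61000704, 141, and 61000560 to 61000702, 97.7) and chromosome 6 (49186421 to 49186599, 99.1, and 49186441 to 49186591, 81.7). The q-values on chromosome 13 were 0.0299 and 0.0677, and those on chromosomes 19 and 6 were at most 7.02e-07. The pair on chromosome 8 lay in a crowded window, and the last 3 pairs lay in the common regions.

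Sites overlapping the other protein were more often found at the other age. For Hdac3 this rested mostly on the common regions, which hold both ages by construction. Of the 158 overlapping old Hdac3 sites, 107 were in the young Hdac3 list, 67.7% (59.8 to 74.9), against 5.56% of the full old list. In the common regions lay 104 of the 107. The share was 20% at 1 to 500 bp from Foxa2, 10.5% from there to 2 kb, 4.63% from there to 10 kb, 1.25% from 10 to 100 kb and 0.366% (0.119 to 0.853) beyond. In the first 3 of these classes the common regions held 10 of 70, 4 of 114 and 1 of 259 sites. Of the 163 old Hdac3 sites that the young list also held, 145 (89.0%) lay within 10 kb of an old Foxa2 site, against 20.5% of the full list. Outside the common regions, 46 of the 2805 old Hdac3 sites were also in the young list. Of those 46, 28 lay within 10 kb of Foxa2. Among the 48 overlapping sites outside these regions, 3 (6.25%) were in the young list.

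For Foxa2 the young list held 141 of the 156 overlapping old sites, 90.4% (84.6 to 94.5), and 21.0% of the full old list. At 1 to 500 bp from Hdac3 it held 37.5% (24.9 to 51.5) of the sites, and beyond 100 kb 19.7% (18.98 to 20.53). Of the 141, 109 lay in the common regions, where the share is 100% by construction. Outside them the young list held 32 of the 47 overlapping Foxa2 sites, 68.1%. Of the 161 pairs, 107 had both sites in their young lists, 39 the Foxa2 site alone, 3 the Hdac3 site alone and 12 neither.

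Each protein had strong sites with nothing of the other nearby. The best-ranked old Foxa2 sites with no Hdac3 site within 10 kb lay on chromosome 16 from 90780115 to 90780413 (enrichment 84.0, 61.2 kb from Hdac3) and from 93591284 to 93592030 (70.0, 17.3 kb), on chromosome 6 from 116585483 to 116585907 (57.3, 592 kb), on chromosome 8 from 96911293 to 96911713 (108, 1198 kb) and on chromosome 4 from 137423263 to 137423455 (202, 1235 kb). All 5 were in the young Foxa2 list, and they ranked 12 to 21 of the old list. In contrast to the 4 named places in the common regions, their enrichments exceeded the list's median. Some overlapping Foxa2 sites of low q did so too, such as that on chromosome 5 from 147072551 to 147072957 (41.3, rank 22).

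The best-ranked Hdac3 sites with no Foxa2 site within 10 kb came only at ranks 65 to 83. They lay on chromosome X from 123302982 to 123303355 (enrichment 20.6, 2930 kb from Foxa2), on chromosome 12 from 68160393 to 68160498 (33.9, 550.2 kb), on chromosome 5 from 37052169 to 37052303 (114, 42.0 kb), on chromosome 19 from 61300293 to 61300418 (9.60, 24.5 kb) and on chromosome 3 from 68409302 to 68409402 (32.9, 12.1 kb). The sites on chromosomes X and 19 were in the young Hdac3 list. Of the 2327 Hdac3 sites farther than 10 kb from Foxa2, 5 had a q-value of at most 0.01, whereas 80 of the 158 overlapping ones did.

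Most broad sites of either list overlapped the other protein. Of the 12 old Hdac3 sites over 1000 bp, 8 overlapped Foxa2, and all 8 were in the common regions. The other 4 lay on chromosomes 11 and 17, with enrichments from 1.08 to 1.198. Those on chromosome 11 lay between 3075267 and 3099985, and that on chromosome 17 ran from 3081525 to 3082851. The widest, on chromosome 11 from 3083223 to 3099985, measured 16763 bp, 10.5% of all bases in Hdac3 sites, and was 19.9 kb from the nearest Foxa2 site. Of the 10 Foxa2 sites over 1000 bp, 8 overlapped Hdac3, and the other two lay on chromosome 11 as well, from 3060463 to 3063362 (enrichment 1.24) and from 3038256 to 3039297 (1.54).

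Over megabases the numbers of sites of the 2 proteins were weakly related. In 2586 windows of 1 Mb, 973 held both proteins, 1109 Foxa2 alone, 187 Hdac3 alone and 317 neither. The numbers of sites per window had a Spearman rho of 0.077 and a Pearson r of 0.11, and a Pearson r of 0.055 without the 5 crowded windows. With the crowded windows left out, windows with no Foxa2 site averaged 0.86 Hdac3 sites. The mean was 0.997 with 1 or 2 Foxa2 sites, 1.12 with 3 to 5, 1.13 with 6 to 10 and 1.29 with 11 to 20 (334 windows), and 0.84 in the 49 windows with over 20. The window richest in Foxa2, from 124 to 125 Mb of chromosome 8, held 35 Foxa2 and 3 Hdac3 sites, none of them overlapping. That from 21 to 22 Mb of chromosome 9 held 34 Foxa2 sites and no Hdac3 site.

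**Figure D5:**
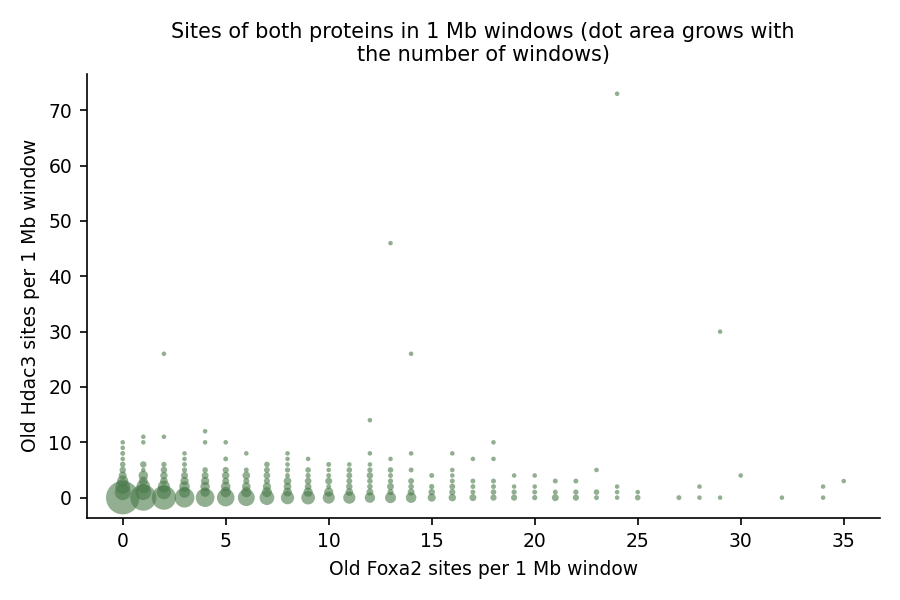
Number of old Foxa2 sites (horizontal) and old Hdac3 sites (vertical) in each of 2586 windows of 1 Mb, with the dot area growing with the number of windows at that point. Windows with over 20 Foxa2 sites hold at most 5 Hdac3 sites, apart from 1 with 29 Foxa2 and 30 Hdac3 sites and 1, the highest point, with 24 and 73.

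The 5 windows crowded with Hdac3 differed in how the 2 proteins met. They held 201 Hdac3 sites, 6.86% of the list, but 49 of the 158 overlapping ones, 31.0%. Of their Hdac3 sites 85.6% lay within 10 kb of Foxa2, against 15.7% elsewhere. On chromosome 1 between 90109957 and 90206465 there were 73 Hdac3 sites, all within 10 kb of a Foxa2 site, but 9 of them overlapped one. On chromosome 9, from 3 to 4 Mb, 25 of 30 Hdac3 sites and 28 of 29 Foxa2 sites overlapped. On chromosome 8 from 19 to 20 Mb it was 5 of 46 Hdac3 sites, on chromosome X from 166 to 167 Mb 9 of 26, and on chromosome 16 from 3 to 4 Mb 1 of 26. In that last window the young Foxa2 list had 20 sites and the old one 2.

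By chromosome, the share of Hdac3 sites on Foxa2 was highest on chromosome 9, with 30 of 162 (18.5%, 12.9 to 25.4), followed by the X with 12 of 176 (6.82%) and chromosome 10 with 9 of 140 (6.43%). The Y held 2 Hdac3 sites and no Foxa2 site. Among the other chromosomes the share was lowest on chromosome 15 with 1 of 125 (0.800%, 0.0203 to 4.38) and on chromosome 14 with 3 of 139 (2.16%). Outside the common regions 1 Hdac3 site overlapped on chromosome 9 and 1 on the X. The X also had fewer Foxa2 than Hdac3 sites, 109 against 176, whereas each autosome had at least 2.99 times as many Foxa2 as Hdac3 sites. The 12 overlapping Foxa2 sites were 11.01% of those on the X.

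The same comparison in young liver gave values for reference, without a test of the difference. There 3.23% of the Foxa2 and 4.07% of the Hdac3 sites overlapped, and 13.7% of each list lay within 10 kb of the other. The Foxa2 list was 1.13 times as long as the Hdac3 list at that age. About the same part of the Hdac3 bases lay in Foxa2 sites, 26.2% in young and 25.9% in old liver, but 13.4% of the Foxa2 bases in young against 2.76% in old. The bases in common were 61.3 kb in young and 41.5 kb in old liver, whereas the Foxa2 sites covered 458 kb and 1501 kb. The common regions contributed 49.8% of the overlapping young Hdac3 sites and 69.6% of the old ones. The overlapping Hdac3 sites outside these regions covered 13.96 kb in young and 5.86 kb in old liver, so most bases in common lay inside them. The enrichment of the Foxa2 site was the higher one in 26.9% of the 238 young pairs and in 55.9% of the old pairs.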

How the data were processed

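ChIP-seq of Foxa2 and Hdac3 in liver of C57BL/6 mice at 3 and 21 months gave 8 libraries, 2 per group, grouped by their titles. Per the labels, both libraries of a group name 1 site list. The sources used here do not state their combination, the peak caller, the control, the BWA version or the read depth, so these are not given. BWA and the mm9 build come from the submitters' processing notes. A fold enrichment (a ratio made by the authors) and a q-value stand beside each position, per the file headers. Deposited q-values reached 0.12 for Foxa2 and 0.2 for Hdac3.

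The end was counted in the site. Ranks are by q, ties by enrichment, and the rank of a pair is the worse of its 2 fractional ranks. Named were the 6 best pairs outside and the 4 best inside the common regions (at most 1 per 1 Mb), the 4 with the highest lower enrichment, the 5 best sites of each list with no partner within 10 kb, and the 3 highest and 3 lowest chromosomes. The members and these rules were chosen with earlier results of these data known. The common regions are merged runs of sites with 1 bp or more in common that hold sites of all 4 lists. Gene lists, cell type markers and sequences were not used, because the tables at hand were of the GRCm38 build. Alternatives were stricter q limits, equal list lengths, autosomes, sites of at least 30 bp, other rules of overlap, and leaving out regions. Overlaps and distances equalled those of bedtools 2.31.1 for all sites of 4 ordered pairs of lists, and the procedure was tested on simulated data. Values were computed in Python 3.11.15 (scipy 1.17.1, pandas 2.3.3, numpy 2.4.6) and plotted with matplotlib 3.10.9.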

Additional observations from a re-analysis of the deposited data

How the results depend on the processing

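No paired analysis was possible because each group has 1 list, and for the same reason no library could be left out. The share of Foxa2 sites with an Hdac3 site (1.22%) stayed within its 95% interval in 6 of 12 alternatives. It was 0.787% with an overlap of 50% of each site, 1.65% with edges within 500 bp, 2.56% with Foxa2 shortened to the length of the Hdac3 list, 1.59% at q of at most 0.01, 0.370% without the common regions, and 0.816% without the 5 crowded windows, an alternative chosen after seeing the data. The share of Hdac3 sites with a Foxa2 site (5.39%) stayed within its interval in 4 of 12. In the same order it was 3.45%, 7.78%, 2.53%, 70.1%, 1.71% and 3.99%, and it was 35.2% at q of at most 0.05 and 11.9% for sites of at least 30 bp. The q limits of these alternatives cut both lists. With the Foxa2 list kept whole, as in the Results, the shares were 92.0% at 0.01 and 39.1% at 0.05. The median distance from Hdac3 to Foxa2 (86.4 kb) became 384 kb with equal lengths, 119.4 kb, 31.9 kb and 0 kb at q of at most 0.1, 0.05 and 0.01, 59.7 kb for sites of at least 30 bp, 96.0 kb without the common regions and 98.9 kb without crowded windows. That from Foxa2 to Hdac3 (414 kb) became 392 kb, 583 kb, 9247 kb, 17923 kb, 1003 kb and 433 kb under the first 6 of these. The stricter q limits leave 2227, 233 and 87 Hdac3 sites, so that distances to them grow by construction. Read depth is unknown, and a site missing from a list may lie under its limit.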
